A study of Mus musculus with 6 samples.

Results

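The coagulation and fibrinolysis genes described here are those of the fibrinogen chains, the clotting factors and their cofactors, the circulating anticoagulants, the plasminogen system and the vitamin K cycle. They were chosen by gene symbol, and 32 of 34 listed symbols were found among the 37991 Ensembl genes counted in each library. Klkb1 (plasma prekallikrein) and Vkorc1 (a vitamin K epoxide reductase) were not analysed here, because no counted identifier matched them. Of the 32 genes, 31 passed the low-count filter and were tested, and Plat (tissue plasminogen activator) is given by its counts only. The data are RNA sequencing counts of polyadenylated RNA from 6 livers of FVB mice at 84 days of age. The 3 WT livers were Ing5 +/+ and the 3 Het livers were Ing5 MommeD48/+, that is, heterozygous for the MommeD48 allele. Ing5 encodes a histone-binding subunit of acetyltransferase complexes, and the comparison asks what carrying the mutant allele does to liver transcripts. MommeD48 comes from a screen for modifiers of transgene silencing. The labels give neither its lesion, nor whether these mice carried the transgene, nor their sex, litters or any batch.

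Hepatocytes make most soluble clotting proteins and release them into plasma as inactive precursors. Tissue factor exposed on injury starts the cascade with factor VII, factors X and V then convert prothrombin to thrombin, and thrombin turns fibrinogen into fibrin. Factors XI, IX and VIII amplify thrombin formation, the anticoagulants hold it in check, and plasmin dissolves the fibrin that has formed. Fibrinogen is also an acute-phase protein, and interleukin 6 is the cytokine best known to induce its genes in hepatocytes.

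Library totals ranged from 19840541 to 22041117 counts, so 3 counts, the limit allowed for a count of 0, corresponded to 0.136 to 0.151 CPM of the library total. Levels below are CPM, scaled to the TMM-normalised library size, unless a length is named. Ing5 itself had 182, 228 and 191 counts in WT replicates 1 to 3, against 193, 217 and 180 counts in Het replicates 1 to 3, and values per liver follow this order throughout. Each fold change is the log2 ratio of Het to WT, given with a standard error (SE), and comes from an edgeR quasi-likelihood fit over 12631 genes with Benjamini-Hochberg adjustment. Nothing in the labels says how separately the livers were handled, so p-values reflect only how these samples vary, and that variation may be technical. In whole tissue, fewer cells of a type and less RNA per cell cannot be told apart. All 8 hepatocyte markers were detected in every library, and they summed to 83518 to 98298 CPM in the WT and 86929.8 to 104915 CPM in the Het livers. Alb alone took 58734 to 73748 CPM in the WT and 60135 to 78832 CPM in the Het livers, so the sum mostly follows Alb. Ranges of the markers over the 6 livers ran from 1.17-fold for Serpina1a to 2.34-fold for Ass1.

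No coagulation or fibrinolysis gene passed the test between the genotypes. With edgeR 0 of 31 passed an adjusted p of 0.05, beside 0 of 12631 genes tested (0%), and 0 of 31 passed with limma-voom or with DESeq2, which called 13 of all genes (0.103%). At an unadjusted p under 0.05 there was 1 of 31, F11 (coagulation factor XI), beside 547 of 12631 genes (4.33%), and it was higher in Het livers, as were 268 of all genes at that p (2.12%). Among the 31 genes, 12 were higher and 19 lower in Het livers, at a median log2 fold change of -0.03, beside 6357 of 12631 genes higher (50.3%) and a median of 0.00 over all genes. Without WT replicate 2, 18 of 31 were higher and the median was 0.01. The 95% interval lay within a 1.5-fold change in either direction for 23 of the 31 genes, beside 8979 of 12631 genes tested. It lay within a 2-fold change for 29, all but Fgl1 and Plau, beside 11373 of 12631 genes. The difference between the highest and lowest WT liver exceeded that between the genotype means for 29 of the 31 genes, all but F11 and Serpind1. A range between single livers usually exceeds a difference between means, and the share over all genes was not computed. The count is therefore no result about these genes.

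**Figure D1:**
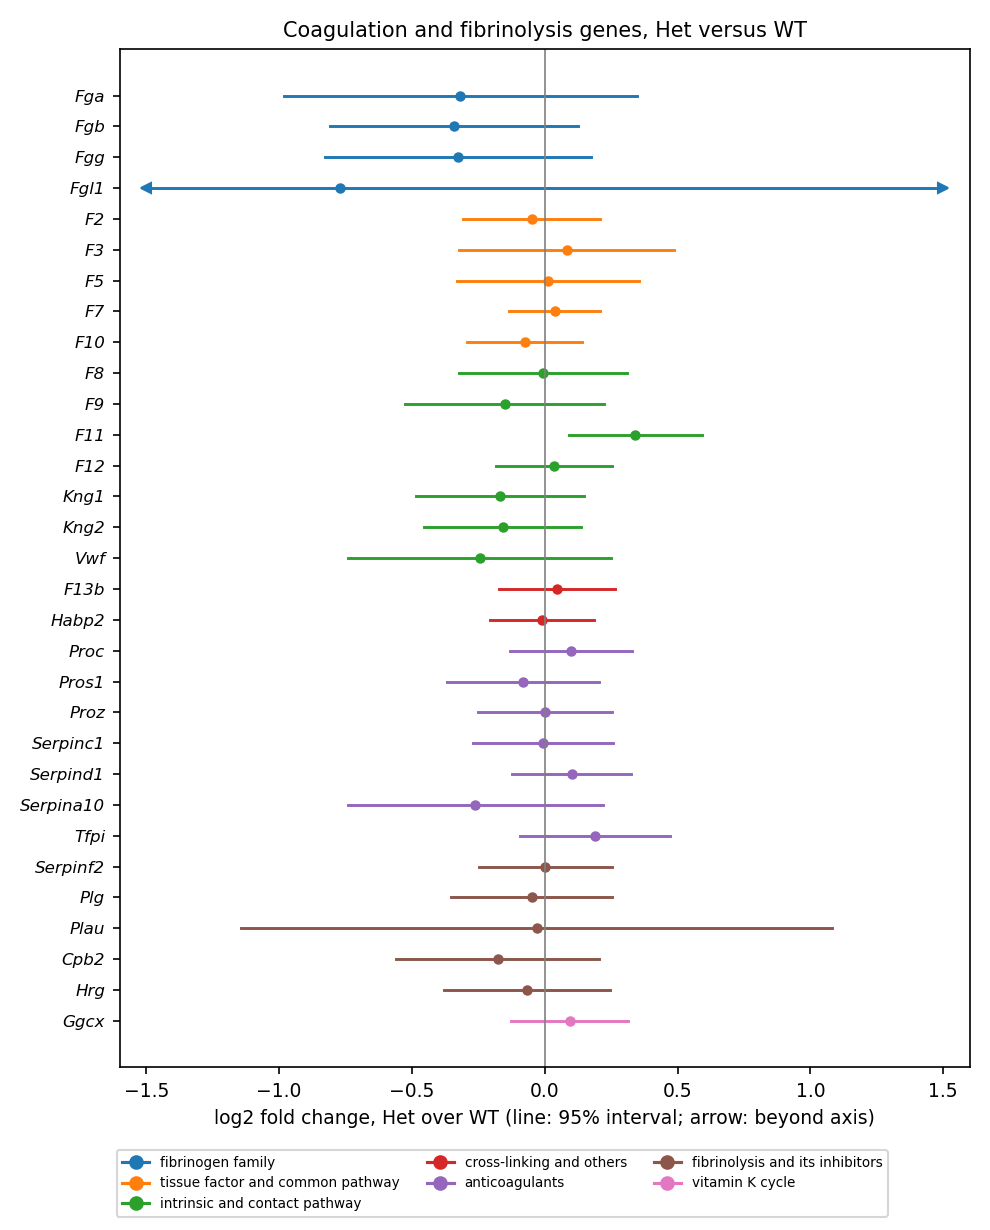
Log2 fold change of Het over WT for the 31 tested genes, grouped by role, with points for the estimate and lines for the 95% interval (n = 3 livers per genotype). The interval of F11 (0.09 to 0.59) lies above 0, and those of the other 30 genes include 0.

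The fibrinogen chain genes Fga, Fgb and Fgg lie side by side on chromosome 3 and were the most abundant of the 32 genes per length. They took 0.758% to 1.56% of all counts in a library. Per kilobase of the annotated principal transcript, the mean level over the 6 livers was 1857 CPM for Fgg, 1325 CPM for Fga and 1053 CPM for Fgb, against 979.9 CPM for Plg (plasminogen) and 977 CPM for Kng1 (kininogen). The order among the chains depends on the annotated transcript length. WT replicate 2 was the highest and WT replicate 3 the lowest liver for all 3 chains. Het replicate 1 was the highest Het liver for Fga and Fgg but the lowest for Fgb, whose Het livers were within 1.03-fold. The 250 bases before each RefSeq start are shown from the GRCm38.p6 table, 5′ to 3′ on the strand of the gene. Whether these bases bear on the levels in the livers was not tested. Capitals mark matches on either strand to TTGCNNAA (a C/EBP-type site) and CTGGGA (the core of the interleukin 6 response element). The Fga window is chr3:83025903-83026152 on the plus strand, the Fgb window chr3:83049864-83050113 on the minus strand and the Fgg window chr3:83007474-83007723 on the plus strand.
Fga: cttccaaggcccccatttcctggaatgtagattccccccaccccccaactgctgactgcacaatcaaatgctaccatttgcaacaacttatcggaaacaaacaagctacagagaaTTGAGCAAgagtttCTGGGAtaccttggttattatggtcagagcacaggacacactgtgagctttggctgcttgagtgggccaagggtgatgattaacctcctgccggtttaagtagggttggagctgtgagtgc
Fgb: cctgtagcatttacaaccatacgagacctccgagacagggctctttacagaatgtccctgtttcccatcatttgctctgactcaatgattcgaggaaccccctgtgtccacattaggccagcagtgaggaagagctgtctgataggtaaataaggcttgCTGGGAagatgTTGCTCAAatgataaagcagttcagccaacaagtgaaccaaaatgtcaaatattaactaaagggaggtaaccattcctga
Fgg: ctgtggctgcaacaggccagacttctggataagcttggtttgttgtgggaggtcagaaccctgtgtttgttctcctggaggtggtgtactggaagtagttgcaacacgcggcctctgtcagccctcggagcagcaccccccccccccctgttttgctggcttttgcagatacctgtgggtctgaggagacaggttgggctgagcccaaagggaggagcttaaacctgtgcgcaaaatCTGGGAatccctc

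CTGGGA stood in all 3 windows, at 121 bases before the start in Fga, 91 in Fgb and 13 in Fgg. Fga and Fgb also had a C/EBP-type match, at 135 and 80 bases before the start. The Fgg window held none, and no match overlapped another. Among 32851 RefSeq windows of the same length, 27.0% held CTGGGA and 9.56% TTGCNNAA. Of the 26 listed genes with a window, which include Klkb1 and Vkorc1, 9 had CTGGGA and 9 had TTGCNNAA. A match describes the letters only.

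**Figure D2:**
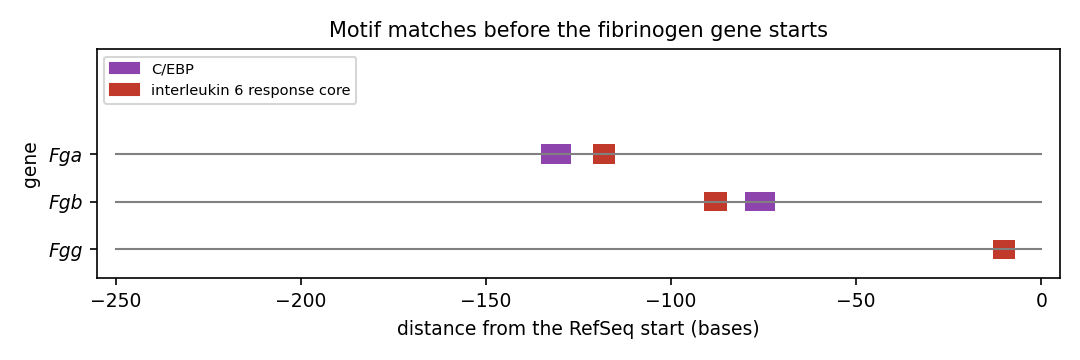
Positions of the motif matches in the 250 bases before the RefSeq start of Fga, Fgb and Fgg (x axis, distance from the start in bases). CTGGGA is present in all 3 windows, and the C/EBP-type match in Fga and Fgb.

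Fgb, which encodes the beta chain, had 4565, 5839.7 and 3046 CPM in the WT and 3482, 3583 and 3544 CPM in the Het livers. The Het livers were within 1.03-fold of each other and lay inside the WT range, which spanned 1.92-fold. Fga, whose product carries the fibrinopeptide that thrombin removes first, had 3872, 5214 and 2322 CPM in the WT and 3728, 2749 and 2677 CPM in the Het livers. Fgg, the gamma chain gene, had 3543, 4594 and 2368 CPM in the WT and 3142, 2648 and 2588 CPM in the Het livers. For each chain WT replicate 2 was the highest and WT replicate 3 the lowest of the 6 livers, and the genotypes overlapped. Group means in WT and Het livers were 3803 ± 1447 and 3051 ± 587 CPM for Fga, 4484 ± 1399 and 3537 ± 51.1 CPM for Fgb, and 3501 ± 1114 and 2792 ± 304 CPM for Fgg (SD, n = 3).

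The log2 fold changes of the chains were -0.32 (SE 0.28) for Fga, -0.34 (SE 0.21) for Fgb and -0.33 (SE 0.22) for Fgg, with 95% intervals of -0.98 to 0.35, -0.81 to 0.13 and -0.83 to 0.17. None passed (edgeR, Benjamini-Hochberg adjusted p = 0.9998 for each). Single livers changed their size. Without WT replicate 2 they were -0.02, -0.11 and -0.08, and without WT replicate 3 they were -0.57, -0.56 and -0.54 (edgeR adjusted p = 0.333, 0.182 and 0.244). Without Het replicate 1 the value of Fga was -0.49. Fgg overlaps Gm30097 on the opposite strand in the reference annotation, which is of another build than the counts. The strand of counting is not given in the sources used here. Whether reads of Gm30097 entered the Fgg counts therefore cannot be told.

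The chains are assembled in equal numbers into 1 protein, and their ratio within a library needs no scaling between libraries. Counts of Fga over Fgb were 0.848, 0.893 and 0.762 in WT livers, against 1.07, 0.767 and 0.755 in Het livers. Counts of Fgg over Fgb were 0.776, 0.787 and 0.777 in WT livers, against 0.902, 0.739 and 0.730 in Het livers. The Fgg ratio thus lay in a narrow band in the WT livers (0.780 ± 0.00577, SD, n = 3), while the chains themselves spanned 1.92-fold to 2.25-fold there. Het replicate 1 had the highest value of both ratios. The log2 ratio differed between the genotypes by 0.03 for Fga over Fgb and by 0.01 for Fgg over Fgb (exact two-sided permutation p = 0.9 and 1, in a design that cannot go below 0.1). Without Het replicate 1 both differences changed sign, to -0.13 and -0.09, and without WT replicate 3 the first was -0.03.

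**Figure D3:**
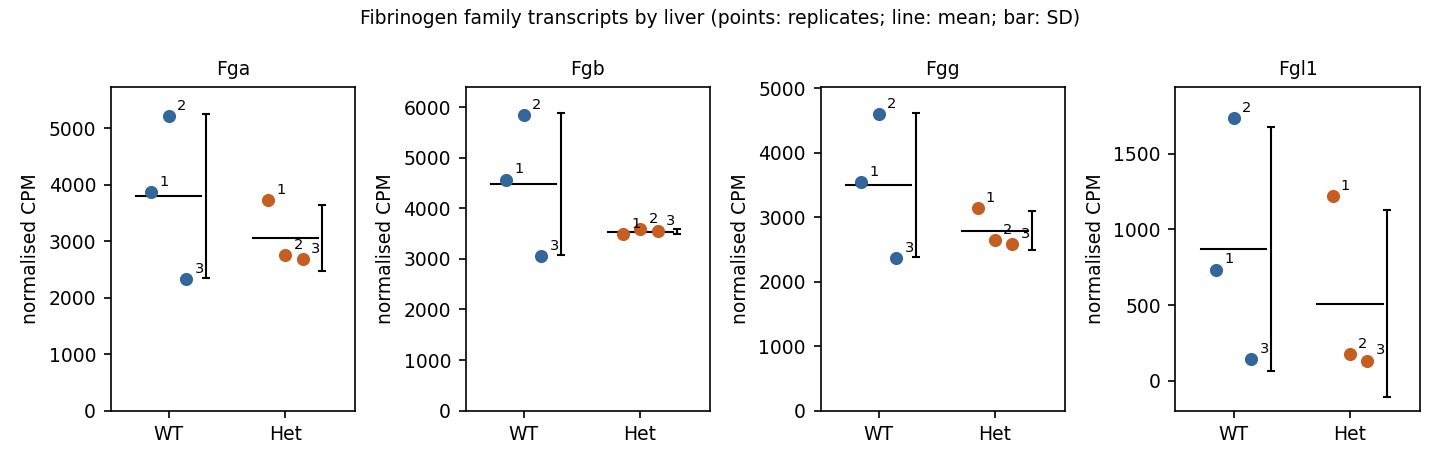
Normalised CPM of Fga, Fgb, Fgg and Fgl1 in each liver (numbers are replicates, lines the mean and bars the SD, n = 3 per genotype). WT replicate 2 is the highest liver in each panel, and Fgl1 spans 13.1-fold.

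Fgl1 had the widest range of the 31 genes. It encodes a fibrinogen-like protein that hepatocytes secrete and that shares the globular domain of the fibrinogen chains. Its level was 734, 1735 and 144 CPM in the WT and 1220.2, 178 and 133 CPM in the Het livers. Each genotype held high and low livers, with WT replicates 1 and 2 and Het replicate 1 far above the others over a 13.1-fold range. The log2 fold change of -0.77 had an SE of 1.36 and an interval of -4.47 to 2.93. It turned to 0.22 without WT replicate 2 and was -2.49 without Het replicate 1 and -1.27 without WT replicate 3. In Het replicate 1, where Fgl1 was the highest of the Het livers, Fgb was the lowest of them, though the Het livers were within 1.03-fold for Fgb.

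Acute-phase genes outside coagulation had the same highest liver as the fibrinogen family. Of 24 such genes, WT replicate 2 was the highest liver for 21, and the lowest was Het replicate 3 for 12 and WT replicate 3 for 7. Their summed level was 19712, 34538 and 9933 CPM in the WT and 18319, 11862 and 10002 CPM in the Het livers. Hpx (hemopexin) and Hp (haptoglobin) took the most counts among them. Hp, which binds free haemoglobin, had 3022, 5736 and 1545 CPM in the WT and 3479.9, 1939 and 1612 CPM in the Het livers. Lower Het values were seen for 23 of the 24 genes, at a median log2 fold change of -0.62, beside 6274 of 12631 genes lower. Since 21 of the 24 were highest in WT replicate 2, they do not count as separate observations. With edgeR 0 passed, and 1 of 24, Saa4, had an unadjusted p under 0.05, a share near the 4.33% of all genes. Its log2 fold change was -0.84 (SE 0.29), and -1.12 without WT replicate 3, where it passed (adjusted p = 0.0230, edgeR) as 1 of 17 genes called among 12801 tested. Orm3, with the next smallest unadjusted p, had 76, 139 and 11 counts in WT libraries, against 27, 1 and 0 in Het libraries. Its log2 fold change was -2.98 (SE 1.38), with overlapping genotypes. The part of the acute-phase genes' variation in the fibrinogen values was not tested. The summed level of the 28 clotting genes other than the fibrinogen family was 14553, 15743 and 13406 CPM in the WT and 15053, 13948 and 13458 CPM in the Het livers, a far narrower range. Its highest liver was still WT replicate 2 and its lowest WT replicate 3, as for the fibrinogen chains. Such a sum mostly follows its most abundant genes.

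Of the tissue factor and common pathway genes, 3 of 5 were higher and 2 lower in Het livers (median log2 fold change 0.01). F2, the prothrombin gene, had 1541, 1661 and 1419.6 CPM in the WT and 1591, 1461 and 1416 CPM in the Het livers, and its interval ran from -0.31 to 0.21. F7, the gene of the protease that tissue factor binds and activates, had the narrowest range of all, 1.09-fold, with 81.9, 79.8 and 83.4 CPM in the WT and 84.4, 86.9 and 80.1 CPM in the Het livers. Its neighbour F10, the gene of the protease that cleaves prothrombin, had 387, 412 and 397 CPM in the WT and 396, 369 and 369.9 CPM in the Het livers. These 3 genes stayed within 1.17-fold over livers that differed 1.92-fold to 2.25-fold in the fibrinogen chains.

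F5, the cofactor of activated factor X, had 957, 1054 and 692 CPM in the WT and 892, 927 and 907 CPM in the Het livers. WT replicate 3 was the lowest liver and the Het livers lay within 1.04-fold of each other. The log2 fold change was 0.01 (SE 0.15), and -0.15 without WT replicate 3. F5 overlaps Gm16548 on the opposite strand. F3, tissue factor itself, is made mainly outside hepatocytes and was low, at 5.11, 5.77 and 7.66 CPM in the WT and 6.70, 7.46 and 5.42 CPM in the Het livers. Its log2 fold change of 0.08 (SE 0.18) changed sign without WT replicate 1 (-0.04) or Het replicate 2 (-0.03).

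Among the intrinsic and contact pathway genes, F11 was the one whose Het livers all lay above the WT livers. F11 encodes the zymogen that in its active form activates factor IX. It had 128, 123 and 151 CPM in the WT and 158, 159.6 and 190.4 CPM in the Het livers, or 134 ± 14.97 and 169 ± 18.1 CPM (SD, n = 3). WT replicate 3 was close to the lowest Het liver. Its log2 fold change of 0.34 (SE 0.11, 95% interval 0.09 to 0.59) had an unadjusted p of 0.0128 and an adjusted p of 0.9998 (edgeR quasi-likelihood, Benjamini-Hochberg). With a library left out it ran from 0.25 without Het replicate 3 to 0.44 without WT replicate 3, and the smallest adjusted p over 14 alternatives was 0.182 (edgeR, without WT replicate 3). Genotypes that did not overlap were seen for 2 of the 31 genes, F11 and Serpind1, beside 1136 of 12631 genes (8.99%). Both had higher Het livers, as did 596 of all genes (4.72%), and 0 of the 31 had all Het livers lower, beside 540 of all genes (4.28%), so these shares are near the background.

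F12, the contact factor that starts the intrinsic pathway, had 403, 441 and 426 CPM in the WT and 438, 444 and 420.2 CPM in the Het livers, a 1.10-fold range. F9, the gene affected in haemophilia B, had 343, 356 and 248 CPM in the WT and 340.3, 266 and 247 CPM in the Het livers. WT replicates 1 and 2 and Het replicate 1 were its highest livers. These livers were also the highest for Fgl1, Fga, Fgg, F2, Kng1, Serpina10, Plg, Cpb2, Hrg, Proz and Vwf, but not for Fgb or F5. The log2 fold change of F9 was -0.15 (SE 0.17). With a library left out it ran from -0.30 without Het replicate 1 or WT replicate 3 to -0.06 without WT replicate 2 or Het replicate 3. The kininogen genes, whose products carry bradykinin, shared their highest and lowest livers, WT replicate 2 and Het replicate 3. Kng1 had 1838, 2118 and 1708 CPM in the WT and 1927, 1669 and 1447 CPM in the Het livers. Kng2 had 239, 296 and 225 CPM in the WT and 245, 240.1 and 196 CPM in the Het livers. The log2 fold changes were -0.17 (SE 0.14) and -0.16 (SE 0.13). Leaving out a library moved Kng1 to between -0.28 (Het replicate 1) and -0.07 (Het replicate 3), and Kng2 to between -0.24 (WT replicate 3) and -0.03 (WT replicate 2). Both values are uncertain, since 17.2% of the 50-base words of the Kng1 transcripts and 19.4% of those of Kng2 occur in both genes. How reads of the shared words were counted is not given in the sources used here.

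**Figure D4:**
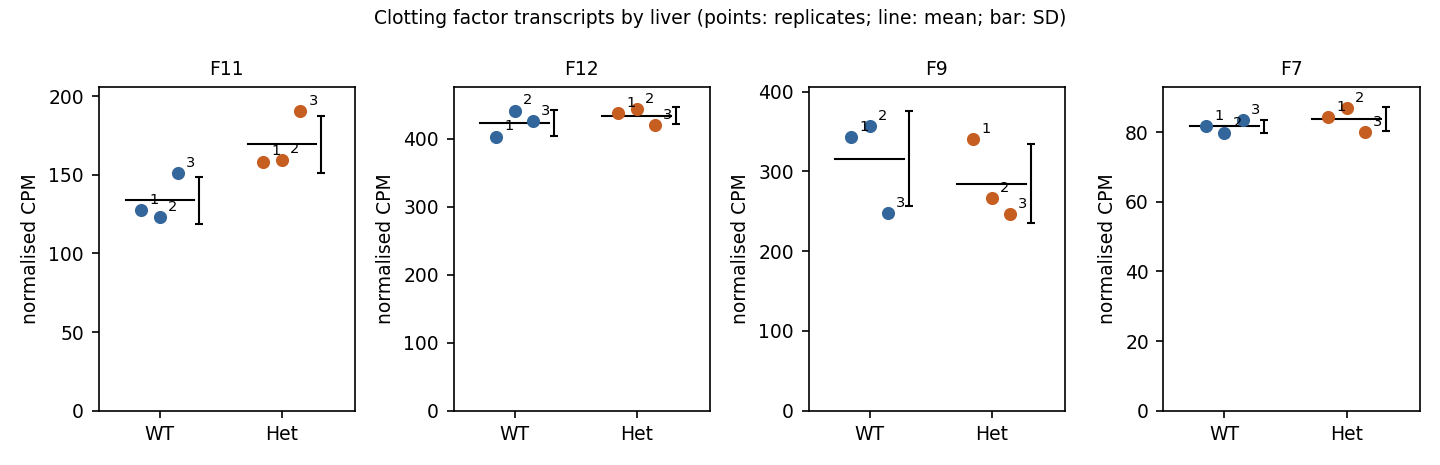
Normalised CPM of F11, F12, F9 and F7 in each liver (numbers are replicates, lines the mean and bars the SD, n = 3 per genotype). The Het livers lie above the WT livers for F11, and the genotypes overlap for the other 3 genes.

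F8 and Vwf, whose products circulate as a complex and come largely from endothelial cells, were far below the hepatocyte factors, at 0.695 and 0.534 CPM per kilobase against 219 CPM per kilobase for F12. F8 had 6.65, 6.27 and 7.56 CPM in the WT and 6.07, 7.82 and 6.44 CPM in the Het livers (log2 fold change -0.01, SE 0.14). Vwf had 5.49, 5.81 and 4.01 CPM in the WT and 5.60, 3.22 and 4.15 CPM in the Het livers, and its log2 fold change of -0.24 (SE 0.22) became -0.07 without Het replicate 2 and -0.47 without Het replicate 1. All 10 endothelial markers were detected in every library and summed to 163, 147 and 198 CPM in the WT and 159, 194 and 155 CPM in the Het livers. F8 was highest in WT replicate 3 and Het replicate 2, the livers with the largest marker sums, whereas Vwf was low in both. The part of endothelial RNA in these values was not tested.

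The cross-linking and hyaluronan-binding protease genes varied little. F13b, the carrier subunit of the transglutaminase that cross-links fibrin, had 313, 293 and 269 CPM in the WT and 307, 295 and 302 CPM in the Het livers (log2 fold change 0.04, SE 0.10). Habp2, a protease that can activate factor VII, had 178, 177 and 162 CPM in the WT and 164, 181 and 168 CPM in the Het livers (-0.01, SE 0.09). The genotypes overlapped for both. Habp2 overlaps Nrap on the opposite strand.

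Of the anticoagulant genes, 4 of 7 were higher and 3 lower in Het livers (median log2 fold change 0.00). Serpinc1, the antithrombin gene and the highest of the group per length, had 1639, 1584 and 1924 CPM in the WT and 1723, 1697 and 1704 CPM in the Het livers. Here WT replicate 3 was the highest and WT replicate 2 the lowest liver, the reverse of the fibrinogen chains, and the log2 fold change was -0.01 (SE 0.12). Serpinc1 overlaps Zbtb37 on the opposite strand. Serpind1, which encodes heparin cofactor II, had 701, 688 and 661 CPM in the WT and 748, 741 and 709 CPM in the Het livers. All Het livers lay above all WT livers, by a log2 fold change of 0.10 (SE 0.10, interval -0.12 to 0.33), which did not pass (adjusted p = 0.9998, edgeR).

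Proc, the gene of the protease that inactivates factors V and VIII, had 397, 389 and 446 CPM in the WT and 448, 443 and 427 CPM in the Het livers (log2 fold change 0.10, SE 0.10). Pros1, which encodes its cofactor protein S, had 53.7, 55.1 and 39.2 CPM in the WT and 46.5, 49.6 and 43.7 CPM in the Het livers (-0.08, SE 0.13). Among the WT livers replicate 3 was the highest for Proc and the lowest for Pros1. Tfpi, which encodes the inhibitor of the tissue factor complex and is made largely by endothelium, had 7.27, 6.27 and 6.79 CPM in the WT and 8.23, 8.10 and 6.83 CPM in the Het livers (0.19, SE 0.13), with overlapping genotypes.

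Proz, the protein Z gene beside F7 and F10 on chromosome 8, had 315, 331 and 268 CPM in the WT and 329, 289 and 297 CPM in the Het livers, a log2 fold change of 0.00 (SE 0.11). Serpina10, the inhibitor that protein Z carries to activated factor X, had 231, 307 and 174 CPM in the WT and 234, 182 and 177 CPM in the Het livers. Its 1.77-fold range was the widest of the anticoagulants, with WT replicate 2 highest and WT replicate 3 lowest as for the fibrinogen chains. The log2 fold change of -0.26 (SE 0.21) shrank to -0.03 without WT replicate 2, and leaving out WT replicate 3 gave -0.44.

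Of the tested fibrinolysis genes, 4 of 5 were lower and 1 higher in Het livers (median log2 fold change -0.05). Plg, the plasmin precursor gene, had 2795, 3117 and 2329.9 CPM in the WT and 2839, 2588 and 2542 CPM in the Het livers (-0.05, SE 0.14), and overlaps Slc22a3 on the opposite strand. Serpinf2, which encodes the main plasmin inhibitor, had 631, 717 and 590.1 CPM in the WT and 656, 628 and 657 CPM in the Het livers (0.00, SE 0.11). WT replicate 2 was highest and WT replicate 3 lowest for both. Cpb2, the carboxypeptidase that removes plasminogen binding sites from fibrin, had 410.3, 455 and 295 CPM in the WT and 398, 318 and 310.3 CPM in the Het livers. Its log2 fold change of -0.18 (SE 0.17) shrank to -0.04 without WT replicate 2, and leaving out WT replicate 3 gave -0.34.

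Hrg, which encodes a plasminogen- and heparin-binding glycoprotein and neighbours the kininogen genes, had 892, 1006 and 811 CPM in the WT and 1004, 827 and 756 CPM in the Het livers (-0.07, SE 0.14). The plasminogen activators themselves were close to the detection floor. Plau, the urokinase gene, had 12, 8 and 13 counts in WT libraries, against 8, 20 and 5 in Het libraries, and its interval of -1.14 to 1.08 covers changes of 2-fold in either direction. Plat had 8, 8 and 6 counts in WT libraries, against 3, 5 and 5 in Het libraries. The 3 Het values of Plat were below the 3 WT values, but they differ by a few counts per library and were not tested.

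The vitamin K-dependent genes F2, F7, F9, F10, Proc, Pros1 and Proz encode proteins that are carboxylated on glutamate before secretion. They were higher in Het livers for 3 of 7 and lower for 4. All 7 intervals lay within a 1.5-fold change, beside 8979 of 12631 genes tested. Their summed level was 3119, 3285 and 2901 CPM in the WT and 3236, 2965 and 2881 CPM in the Het livers. Ggcx, the carboxylase that modifies them, had 52.4, 58.1 and 61.8 CPM in the WT and 56.1, 59.6 and 68.0 CPM in the Het livers (0.09, SE 0.10). Het replicate 3 had the highest Ggcx and the lowest sum of the substrates, though the sum in WT replicate 3 was close, at 2901 against 2881 CPM.

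Across the 31 tested genes WT replicate 2 was the highest liver for 18 (58.1%) and WT replicate 3 the lowest for 13 (41.9%), while over all 12631 genes those livers were highest and lowest for 17.6% and 21.6%. Het replicate 3 was the lowest for a further 7. The 6 livers lay within 1.2-fold for 8 genes, among them F2, F7, F10, F12 and Proc. They spanned over 1.5-fold for 12, among them the fibrinogen family, Serpina10, Cpb2, F5 and F11, and the low-level genes Plau, Vwf and F3. Shares over all genes were not computed for these counts, so they are no result about these genes. For the 23 genes with a mean of at least 100 CPM, the median SD over the 6 livers was 0.17 in log2 CPM, beside 0.13 for all 1340 genes of that level.

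**Figure D5:**
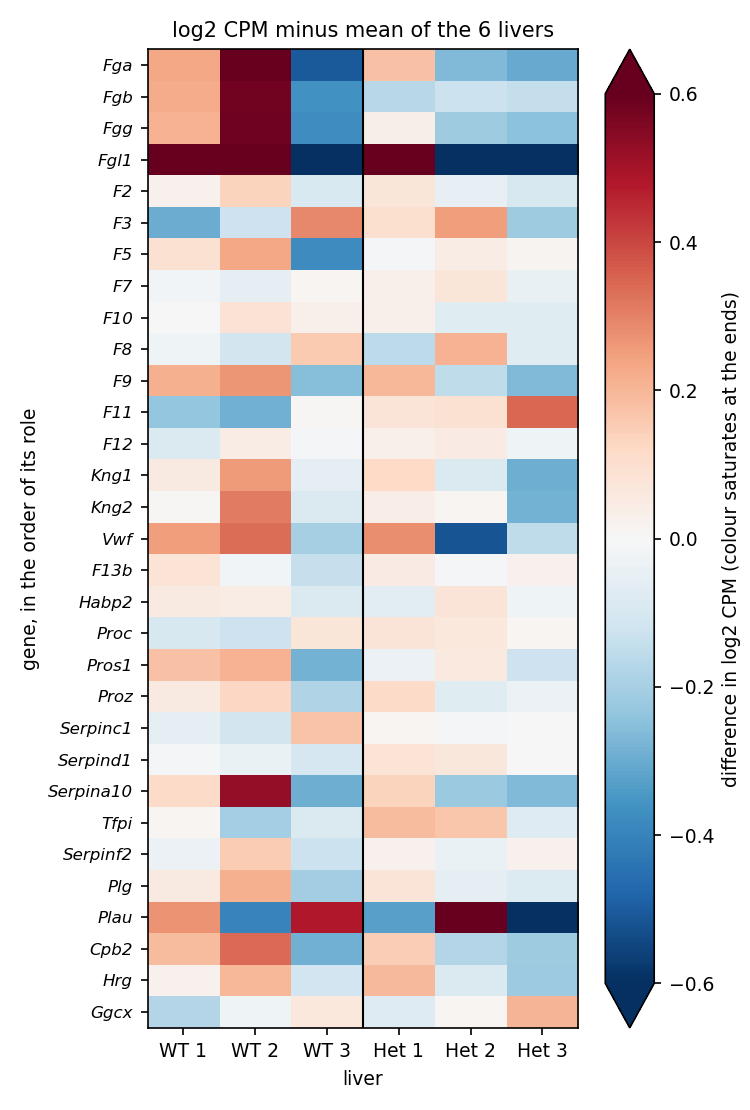
Log2 CPM minus the mean of the 6 livers for the 31 tested genes, in the order of their roles (rows) and by liver (columns). WT replicate 2 is the highest liver for 18 genes and WT replicate 3 the lowest for 13, and these groups of genes only partly coincide. WT replicate 2 is the lowest liver for 5 genes, F7, F11, Proc, Serpinc1 and Tfpi.

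Other haemostasis genes, a list of 46 receptors, inhibitors, cargo and clearance proteins, gave 38 tested genes, of which 13 had higher and 25 lower values in Het livers (median log2 fold change -0.09). With edgeR 0 of them passed, and 5 of 38 had an unadjusted p under 0.05, beside 547 of 12631 genes (4.33%). All 5 were lower in Het livers, as were 279 of all genes at that p (2.21%). Anxa2, part of a cell-surface plasminogen receptor, had 10.7, 8.13 and 8.64 CPM in the WT and 6.07, 6.90 and 6.10 CPM in the Het livers (-0.53, SE 0.14). Tfpi2, a Kunitz-type inhibitor of plasmin, had 42.9, 39.5 and 43.4 CPM in the WT and 34.9, 32.9 and 36.3 CPM in the Het livers (-0.27, SE 0.08). For these 2 genes and F2r, a thrombin receptor, all Het livers lay below all WT livers, 3 of 38 beside 540 of 12631 genes (4.28%), and none passed (adjusted p = 0.9998, edgeR). The other 3 of the 5 were F2r at -0.25 (SE 0.10), Eno1, an enolase that also binds plasminogen, at -0.29 (SE 0.12), and Aifm2, a quinone reductase, at -0.25 (SE 0.11). Eno1 has a near-identical copy, so its counts are uncertain. S100a10, the partner of Anxa2 named after its values were seen, was at -0.35 (SE 0.16).

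Pzp, a broad protease inhibitor, and Apoh, a phospholipid-binding plasma glycoprotein, took the most counts in that list. Pzp had 7783, 10015 and 5341 CPM in the WT and 7686, 6837 and 6637 CPM in the Het livers, with the same highest and lowest livers as the fibrinogen chains. Apoh had 2302, 2279.8 and 2411 CPM in the WT and 2549, 2479.5 and 2471 CPM in the Het livers (0.10, SE 0.11), with all Het livers above all WT livers.

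Of 14 genes for transcription factors and receptors that act on liver coagulation genes, 6 had higher and 8 lower values in Het livers (median log2 fold change -0.07). With edgeR 0 passed, and 1 of 14, Esr1, had an unadjusted p under 0.05, beside 547 of 12631 genes (4.33%). Hnf4a, a nuclear receptor that drives many clotting factor genes, was at -0.04 (SE 0.15), and Cebpa, a C/EBP factor, at 0.15 (SE 0.12). Esr1, the oestrogen receptor gene, had 36.0, 37.2 and 22.8 CPM in the WT and 24.5, 21.9 and 21.3 CPM in the Het livers (-0.51, SE 0.18), with overlapping genotypes. Without WT replicate 3, Stat3 (-0.72), Esr1 (-0.70) and Il6ra (-0.58) passed (edgeR adjusted p = 0.0297, 0.0297 and 0.0342), among 17 genes called of 12801 tested, and no clotting gene did. Stat3, a transcription factor of interleukin 6 signalling, had 127, 151 and 70.3 CPM in the WT and 84.6, 82.3 and 86.1 CPM in the Het livers (-0.46, SE 0.26). WT replicate 3 was its lowest liver, and also the lowest for the interleukin 6 receptor gene Il6ra, at 23.5 CPM. The same liver was the lowest for Hnf4a, at 457 CPM, and for the listed genes Il6st, Foxa3, Onecut1 and Nr5a2. The remaining listed genes were lowest in other livers.

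Platelets carry clotting proteins, and their RNA was scarce in these livers. The 10 platelet and megakaryocyte markers summed to 4.53, 5.81 and 5.19 CPM in the WT and 4.40, 5.25 and 5.86 CPM in the Het livers, and 1 to 5 of them were at 0 counts in a library. Gp1bb had 1 count in WT replicate 1 and 0 in the other libraries. All 6 Kupffer cell and macrophage markers were detected in every library and summed to 163, 159 and 87.7 CPM in the WT and 131, 178 and 101 CPM in the Het livers. WT replicate 3, the lowest liver for the fibrinogen chains, was lowest here too, while Het replicate 2 was the highest. The part of these cells in the fibrinogen values was not tested.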

How the data were processed

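The authors deposited raw whole-number counts per Ensembl gene, 1 table per liver, each row naming a gene. Per the labels' protocols, Trizol RNA from frozen liver went into TruSeq libraries. The submitters' processing notes name TopHat2 2.0.11, HTSeq 0.6.1, DESeq and mm9. Annotation release and counting strand are not given in the sources used here. Symbols were found for 32919 of 37991 identifiers.

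Counts were fitted in R 4.3.3 with edgeR 4.0.16: filterByExpr (minimum count 10), TMM factors (0.977 to 1.02), robust quasi-likelihood with genotype as the only term, and Benjamini-Hochberg adjustment over 12631 genes at 0.05. SE and 95% intervals came from the F statistic. These intervals include the variation between livers, while the floor of 3 counts covers counting error only. All pairs of libraries differed beyond sampling noise (chi-square per degree of freedom at least 9.33). The fits were tested on simulated counts. Principal transcript lengths came from GENCODE on GRCm38 and promoter windows from RefSeq, another build than the files', so no coordinates were carried over. Alternatives were other size factors, filters and library sizes, no robust estimation, each library left out, DESeq2 1.42.0, limma-voom (limma 3.58.1), a replicate block and a threshold of 0.1.

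The genes and lists were chosen with earlier results of these data known. Every matched coagulation gene is named. Names from each other gene list, cell type markers apart, are the called genes. Where none was called, they are the 2 with the highest mean CPM and the 2 with the smallest p. Further names were added after their values were seen. Marker lists of stellate cells, cholangiocytes, neutrophils and erythroid cells were summed but are not described. A listed regulator gene and its motif are not reported here.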

Additional observations from a re-analysis of the deposited data

How the results depend on the processing

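With edgeR the number of genes past the threshold was 0 with all 6 livers, 1 without a low-count filter, 13 with DESeq2 in place of edgeR, and 0 to 17 with a library left out (17 without WT replicate 3, 10 without Het replicate 1). No coagulation gene passed under any setting run. Of 433 fold changes of the 31 genes under alternatives, 399 kept their sign and 34, in 15 genes, did not. With a library left out the log2 fold changes of these 15 ran from -2.49 to 0.22 for Fgl1, -0.10 to 0.0092 for F2, -0.042 to 0.26 for F3, -0.15 to 0.14 for F5, -0.12 to 0.072 for F8, -0.0037 to 0.066 for F12, -0.010 to 0.095 for F13b, -0.22 to 0.0043 for Pros1, -0.085 to 0.065 for Proz, -0.060 to 0.084 for Serpinc1, -0.058 to 0.084 for Serpinf2, -0.15 to 0.052 for Plg, -0.75 to 0.30 for Plau, -0.19 to 0.020 for Hrg and -0.055 to 0.020 for Habp2. For Proz the value was -0.0011 without a low-count filter, -0.0018 when 3 libraries had to exceed 1 CPM and -0.0030 with library sizes without the 20 most abundant genes, and for Serpinf2 it was -0.00037 with those library sizes. The difference in log2 ratio with a library left out ran from -0.13 to 0.12 for Fga over Fgb and from -0.087 to 0.066 for Fgg over Fgb. The causes were not tested. WT and Het livers share replicate numbers, but deviations of same-numbered livers correlated at -0.025, -0.090 and 0.23, and not every liver correlated best with its own number, so the pairing was not used. With the replicate block 0 genes and 0 coagulation genes passed. Among genes that kept their sign, leaving out a library also moved Cpb2 to -0.30 and Serpina10 to -0.40 without Het replicate 1, Cpb2 to -0.11 without Het replicate 3, Proc to 0.16 without WT replicate 3 and Ggcx to 0.01 without Het replicate 3. Depth limits Plat and Plau.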
